A study of Homo sapiens with 4 samples.

Results

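Off-target sites that differed from the VEGFA site 2 guide at 7 of its 20 bases were examined in break lists from U2OS cells, a human osteosarcoma line. TTISS-seq, which joins a short double-stranded DNA tag into double-strand breaks inside living cells, was applied to 2 VEGFA site 2 libraries and 2 non-target libraries. All 4 libraries came from cells of WT genotype. The first group was treated with Streptococcus pyogenes Cas9 and the VEGFA site 2 single guide RNA (sgRNA), and the second was labelled undigested, with no guide named. Listed break positions of the VEGFA site 2 libraries that lay within 30 nt of each other were merged into 606 loci. In the 60-nt sequence around each position, the 20-nt protospacer flanked by the protospacer-adjacent motif (PAM) NGG with the fewest mismatches to the guide was kept, provided that its expected cut, 3 nt from the PAM, fell within 10 nt of the listed break. The best match had exactly 7 mismatches at 55 of the 606 loci, and counts did not enter that choice beyond the listing itself. Replicate 1 listed 40 of these loci and replicate 2 listed 48.

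Cas9 first recognises the PAM and then opens the DNA from the PAM outwards, pairing the guide with the protospacer base by base. The PAM-proximal bases, called the seed, are known to tolerate mismatches poorly, whereas the PAM-distal end tolerates more of them. A guide can also pair with a site that has a base too many or too few, leaving an unpaired base in the DNA (a DNA gap) or in the guide (an RNA gap), and Cas9 can cut weakly next to PAMs such as NAG. A site with many mismatches may therefore be closer to the guide in one of these other readings. VEGFA site 2 lies near the start of the gene for vascular endothelial growth factor A, and its C-rich guide is known for many off-target sites.

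Of the 12 sites with the highest counts, 10 are shown first, because the counts discussed in the following paragraphs rest on them. Each is written 5′ to 3′ on the strand that matches the guide, with the PAM as its last 3 bases. Capitals mark the bases that differ from the guide, and guide positions are counted from 1 at the 5′ end. Sites are named by the gene that holds them or the protein-coding gene with the nearest start site, and otherwise by position in hg38.
SHISA2 site, chr13:26052088-26052107, plus strand: TCcccccCAcCcccGAcctcagg
DUSP8 site, chr11:1548475-1548494, plus strand: CTccTccCTcCAcccgcctctgg
PIGL site, chr17:16286116-16286135, minus strand: gCcAcccCTcCAcccAcctctgg
TBC1D9B site, chr5:179908001-179908020, plus strand: gCccccTCAGCcccGgcctcggg
OTUB1 site, chr11:63999407-63999426, minus strand: ACTcccGCccCAcccgcctcagg
APPL2 site, chr12:105659915-105659934, plus strand: TCccccTCcACcccAgcctctgg
BCL6B site, chr17:7022386-7022405, plus strand: CGccccTCcACccccAcctcggg
MATK site, chr19:3786114-3786133, plus strand: TTTccccCcACcccGgcctcggg
CCDC6 site, chr10:59982219-59982238, minus strand: CTccccTCcACccccgccCcagg
VWA3B site, chr2:98184618-98184637, plus strand: AaTccccCcACcccGCcctctgg

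High counts were found at 5 of the 55 sites. A site was termed high when its share of all listed counts, averaged over both VEGFA site 2 libraries with an unlisted site taken as 0, was at least 0.1%. The sum of listed counts, 2855164 in replicate 1 and 3182992 in replicate 2, is not the sequencing depth, because the rule by which a position entered a list is not given in the sources used here. The SHISA2 site stood above all other sites with 7 mismatches, with 27953 reads counted in replicate 1 and 35014 in replicate 2. Its mean share was 1.04% ± 0.0856 (SD, n = 2), which placed it at rank 28 of the 606 loci and at 53.9% of the share of the intended target. The break lay 88 bp from the start site of SHISA2, which encodes an endoplasmic reticulum protein that dampens Wnt and FGF signalling. This single site held 32.5% of the counts of all 55 sites in replicate 1 and 34.8% in replicate 2.

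The other high sites had lower counts, both replicates listed each of them, and 3 of them are described here. The DUSP8 site, 23780 bp from the start of a gene for a MAP kinase phosphatase, had 14040 and 12827 counts and took 0.447% ± 0.0628 (SD, n = 2) of all listed counts. The PIGL site lay in intron 2 of a gene for an enzyme of GPI anchor synthesis and had 11100 and 12793 counts, or 0.395% ± 0.00930 (SD, n = 2). The difference between the means of these sites was smaller than the replicate SD of the DUSP8 site, and in replicate 2 their shares were 0.403% and 0.402%. The TBC1D9B site, 120 bp from the start of a gene for a putative Rab GTPase-activating protein, had 3748 and 6336 counts, or 0.165% ± 0.0479 (SD, n = 2). Together the 5 high sites held 69.4% of the counts of all 55 sites in replicate 1 and 70.1% in replicate 2.

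The limit of 0.1% fell inside a continuous range of values. The OTUB1 site, in the gene of a deubiquitinase, lay just below it with 3239 and 2582 counts, on average 0.0973% ± 0.0229 (SD, n = 2), and replicate 1 alone put it above the limit at 0.113%. The APPL2 site, in a gene-poor stretch 423728 bp from the nearest start site, followed with 2811 and 3038 counts, or 0.0969% ± 0.00213 (SD, n = 2). The replicate values of the OTUB1 site spanned those of the APPL2 site. Of the next sites, that of BCL6B, a gene for a transcriptional repressor, had 2062 and 1516 counts, and that of MATK, a gene for a tyrosine kinase, had 2007 and 1266. The VWA3B site, in intron 9 of the gene, had 1597 and 867 counts. The CCDC6 site differed most between replicates among the 12 highest, with 628 counts in replicate 1 and 2076 in replicate 2.

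The remaining 43 sites were low, with mean shares from 0.000943% to 0.0395%. The median share of all 55 was 0.0120% with an unlisted replicate as 0, and 0.0219% in replicate 1 alone and 0.0172% in replicate 2 alone over the sites listed in that replicate. All 55 together held 3.02% of the listed counts in replicate 1 and 3.16% in replicate 2. Both replicates listed 33 of the 55 sites. The other 22 appeared in a single replicate, 7 in replicate 1 and 15 in replicate 2, and the highest of them, in intron 8 of RIN3, had 1539 counts in replicate 2 and was not listed in replicate 1. Over the 33 sites listed in both, Spearman's rho between the counts of the replicates was 0.90 across sites, which are not independent replicates. The 2 shares of such a site differed by a median of 1.25-fold, 27 of the 33 differed by at most 2-fold, and the widest difference, at a site with 22 and 95 counts, was 3.87-fold.

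The sites with 7 mismatches were set beside loci with 1 mismatch fewer or more. Loci with 6 mismatches (n = 109) had a median share of 0.0146%, against 0.0120% with 7 mismatches and 0.00738% with 8 (n = 26). Both replicates listed 61.5% of the loci with 6 mismatches, 60% of those with 7 and 42.3% of those with 8, and the shares of high loci were 12.8%, 9.09% and 7.69%. The medians count an unlisted replicate as 0, and over loci listed in both replicates they were 0.0318%, 0.0234% and 0.0348%, lowest with 7 mismatches. These classes were compared as a description with no test. Of the 55 sites, 4 had a mean share above the median of the 75 loci with 4 mismatches, 0.148%, and 51 lay below it.

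The counts at most of the sites with 7 mismatches lay exactly where the matched protospacer should be cut. The position with the highest count coincided with the expected cut at 37 of the 55 sites and lay within 1 nt of it at 51 (92.7%). The corresponding share was 92.7% at loci with 6 mismatches, 80.8% at loci with 8, and 37.9% over all 211 loci that had more than 7 mismatches or no NGG match. A locus with no NGG match has no expected cut and could only lower that last share. The remaining 4 of the 55 sites, at 2 to 5 nt from the expected cut, were those in CDC42BPG, near the starts of SLC29A2 and NR2C1, and in ERFL. Their mean shares were all at most 0.0092%.

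Counts in the non-target libraries were found at 4 of the 55 sites, all among the 7 highest. The DUSP8 site had 6 counts in non-target replicate 1 and 16 in replicate 2, and the PIGL site had 3 and 6. In non-target replicate 2 alone, the TBC1D9B site had 5 counts and the APPL2 site had 3. The SHISA2 site, with the highest share of the 55, was not listed in either non-target library. The intended target had 22 and 60 counts in these libraries against 52810 and 64011 in the VEGFA site 2 libraries, so that the non-target lists also held the intended target; the origin of the non-target counts was not tested. The non-target totals were only 29017 and 60660 listed counts.

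A test across all loci of the 4 libraries called 15 of the 55 sites higher in the VEGFA site 2 libraries and none lower, against 1.74% of all loci called lower (edgeR's quasi-likelihood test, Benjamini-Hochberg adjusted p under 0.05, 2 libraries against 2). The background was 26.6% of all 689 loci called higher, and 27.3% of the sites with 7 mismatches were. That background mixes 42.9% of the loci with at most 6 mismatches and 7.48% of those with more than 7 or no match, and the differences between these classes were not tested. All 55 had a higher value in the VEGFA site 2 libraries, where they had to be listed to be included. The fitted log2 fold change was 4.25 ± 0.56 (SE; adjusted p = 0.0309, edgeR) at the DUSP8 site and 5.29 ± 0.56 (SE; adjusted p = 0.0309, edgeR) at the PIGL site. At the other 13 called sites no count was listed in the non-target libraries, and no fold change is given because an unlisted position is not a measured 0. Their calls rest on entering those positions as 0, and are thus not measured differences. The high TBC1D9B site was not called (adjusted p = 0.141, edgeR). The calls rested on the settings, since TMM normalization gave 0 called sites (6 at an unadjusted p under 0.05) and a replicate block 0 (3 at an unadjusted p under 0.05). Of all 689 loci, each of these settings also called 0 higher. DESeq2 called 1 site, the SHISA2 site, among 12 loci called higher. Without either VEGFA site 2 library 0 were called, but the spread then came from the non-target libraries alone, and this says nothing about the stability of the calls.

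The 7 mismatches were unevenly spread along the guide. On average 4.78 fell at positions 1 to 10 and 2.22 at positions 11 to 20, the PAM-proximal side that includes the seed, a difference of 2.56 ± 1.91 (SD over 55 sites). In the hg38 genome, 78456 NGG sites with exactly 7 mismatches and no closer NGG match within 10 nt were found, and their mean difference was -0.04 ± 1.95 (SD over sites). Position 1 was mismatched at 92.7% of the listed sites against 48.8% of the genomic sites, position 2 at 90.9% against 51.9%, and position 8 at 94.5% against 49.3%. At positions 13 and 14, in contrast, 3.64% and 1.82% of the listed sites were mismatched, against 24.3% and 23.5% of the genomic sites. Positions 17, 18 and 20 were mismatched at 5.45%, 5.45% and 7.27% of the listed sites, whereas position 16 was mismatched at 56.4%, above its genomic share of 49.0%.

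A few substitutions were shared by many of the listed sites. T8C, in which the guide has the first base and the site the last, was present at 51 of the 55 sites (92.7%) and at 27.0% of the genomic sites with 7 mismatches. A11C was present at 35 sites (63.6% against 21.3%), A2C at 29 (52.7% against 24.7%) and G16A at 21 (38.2% against 19.4%). Each of the first 3 replaces a non-C base of the guide with C. Positions and substitutions were counted in the ungapped reading, and an unpaired base shifts which guide base each site base faces. At the APPL2 site, T8C and A11C are both absent from the reading with 1 unpaired base given below. The substitutions are thus not separate from the gapped readings, and whether T8C is a tolerated mismatch or part of a shift was not tested. Of 21212 genomic sites with T8C, 51 were listed (0.240%, 95% Wilson interval 0.183% to 0.316%), and of 57244 without it, 4 were listed (0.00699%, 0.00272% to 0.0180%).

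The number of mismatches in positions 11 to 20 went with listing. Of the 38 genomic sites with none, 1 was listed. Of the 1005 sites with 1 such mismatch, 10 were listed (0.995%, 95% Wilson interval 0.541% to 1.82%), and of the 9059 sites with 2, 26 were listed (0.287%, 0.196% to 0.420%). With 3 such mismatches 13 of 29403 were listed (0.0442%, 0.0258% to 0.0756%), and with 4 or more 5 of 38951 (0.0128%, 0.00548% to 0.0300%). The intervals of neighbouring classes from 1 to 3 mismatches did not overlap. Among the listed sites themselves, the share of counts was not ordered in the same way. The 11 sites with at most 1 such mismatch had a median share of 0.0109%, the 26 with 2 had 0.0232%, the 13 with 3 had 0.00653% and the 5 with 4 or more had 0.00360%. The SHISA2 and PIGL sites were among those with 3, and Spearman's rho between the number and the mean share was -0.22 across the 55 sites.

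A reading with 1 unpaired base brought many of the 55 sites closer to the guide. When 1 base of the guide or of the DNA was left unpaired beside an NGG PAM, 43 of the 55 sites (78.2%) had an alignment with at most 4 mismatches, against 2050 of the 78456 genomic sites (2.61%). At most 3 mismatches remained at 18 sites (32.7%), against 248 genomic sites (0.316%), and 2 remained at 5 sites, against 19 genomic sites. All 55 reached 5 or fewer, as did 18.8% of the genomic sites. Of the 211 listed loci with more than 7 mismatches or no NGG match, 58 (27.5%) reached at most 4 mismatches and 33 (15.6%) at most 3. Among loci with 6 mismatches the shares were 78.9% and 26.6%. Among the 26 loci with 8 mismatches, which are part of these 211, they were 76.9% and 50%. Low gapped counts were therefore not particular to the sites with 7.

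Of the 18 sites with at most 3 mismatches in a gapped reading, 11 of those with the highest counts are shown in that reading. It has fewer mismatches than the ungapped one, although some of these sites had fewer still with 2 unpaired bases. Capitals mark mismatches and, for a DNA gap, also the unpaired DNA base, and the last 3 bases are again the PAM. Where the unpaired base stands in a run of equal bases, its place within the run cannot be told apart.
DUSP8 site, guide base 12 unpaired, 3 mismatches: TCcTccctccacccgcctctgg
APPL2 site, extra DNA base after guide position 15, 2 mismatches: TTccccctccaccccAgcctctgg
SLC6A19 site, guide base 11 unpaired, 3 mismatches: CacccccATcccccgcctcagg
OSBPL9 site, extra DNA base after guide position 11, 3 mismatches: TCccccctccaCccccgccCccgg
RIN3 site, guide base 8 unpaired, 3 mismatches: gaGccccccaGcccAcctctgg
CUEDC1 site, extra DNA base after guide position 15, 2 mismatches: gaccccctTcaccccGgccCcagg
FBP1 site, guide base 8 unpaired, 3 mismatches: gaTTTccccaccccgcctcggg
SIPA1 site, guide base 16 unpaired, 3 mismatches: CCccTcctccacccccctccgg
GLP1R site, guide base 11 unpaired, 2 mismatches: TaAcccctccccccgcctctgg
DOCK10 site, extra DNA base after guide position 15, 3 mismatches: CCTcccctccaccccAgcctccgg
Site at chr5:139697197-139697216, guide base 8 unpaired, 3 mismatches: gaGAcccccaccccgccCcagg

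At the APPL2 site the extra base lay between guide positions 15 and 16, and guide bases 16 to 18 were paired on its PAM side. At the CUEDC1 site the extra base was an equal neighbour of the base paired with guide base 16. It could therefore lie on either side of that base. The CUEDC1 site, in intron 1 of the gene, had 588 and 600 counts. The GLP1R site, in intron 1 of the gene of the glucagon-like peptide 1 receptor, had 204 and 464, and the SLC6A19 site, near a gene for an amino acid transporter, had 1415 and 937. The other 2 sites with 2 mismatches in a gapped reading, in intron 1 of BEGAIN and intron 6 of KDM4B, were listed in replicate 2 only, with 365 and 290 counts. The OSBPL9 site, in intron 8 of a gene for an oxysterol-binding protein, had 1060 counts in each replicate. The FBP1 site, near a gene of gluconeogenesis, had 228 and 764, and the SIPA1 site, in intron 1 of a gene for a Rap GTPase-activating protein, had 698 in replicate 1 only. The DOCK10 site, in intron 3, had 486 counts in replicate 2 only, and the site on chromosome 5, in intron 2 of a long noncoding RNA gene, had 429 in replicate 1 only.

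An RNA gap gave fewer mismatches than a DNA gap at 31 of the 55 sites, a DNA gap fewer at 18, and both the same number at 6. Guide base 8, the T that T8C replaces, was the unpaired one in the best gapped reading of 15 sites. The gapped reading used the PAM of the ungapped match at 53 of the 55 sites and at all 18 with at most 3 mismatches.

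The listing of genomic sites went with the gapped number of mismatches. Of the 19 genomic sites with 7 ungapped and 2 gapped mismatches, 5 were listed (26.3%, 95% Wilson interval 11.8% to 48.8%). With 3 gapped mismatches 13 of 229 were listed (5.68%, 3.35% to 9.47%), with 4, 25 of 1802 (1.39%, 0.941% to 2.04%), and with 5, 12 of 12672 (0.0947%, 0.0542% to 0.165%). With 6 or 7 gapped mismatches, 0 of 57288 were listed, for which the interval ends at 0.00671%. The intervals of neighbouring classes did not overlap. The order was also found among genomic sites with at most 2 mismatches in positions 11 to 20, of which 10 of 112 with 3 gapped mismatches were listed (8.93%), 15 of 705 with 4 (2.13%) and 9 of 2660 with 5 (0.338%). With more than 2 mismatches there, the shares were 3 of 117 (2.56%), 10 of 1097 (0.912%) and 3 of 10012 (0.0300%). The gapped and the ungapped number of mismatches come from the same bases, and the part of each in the listing was not tested.

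The height of the counts did not follow the gapped number in the same way. The 18 sites with at most 3 gapped mismatches had a median share of 0.0115%, the 25 sites with 4 had 0.0109% and the 12 sites with 5 had 0.0157%. Spearman's rho between the gapped number and the mean share was 0.05 across the 55 sites. Of the 5 high sites, only the DUSP8 site reached 3 gapped mismatches. The PIGL site reached 4 with guide base 12 unpaired, and the TBC1D9B site 4 with an extra base after position 15. Both gaps stand in runs of equal bases, so their places within the run cannot be told apart. The SHISA2 site kept 5, whether the gap was in the DNA or in the guide.

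The SHISA2 site was therefore read with 2 unpaired bases as well, a reading chosen after its value was seen. With 2 unpaired DNA bases it had 3 mismatches in the stretch that follows, shown because it belongs to the site with the highest counts and no reading with 1 unpaired base had as few mismatches. Capitals mark the mismatches and the unpaired DNA bases.
SHISA2 site, extra DNA bases after guide positions 11 and 16, 3 mismatches: gCTccccCccaCccccgAcctcagg
At most 3 mismatches with 2 unpaired bases of one kind were found at 38 of the 55 sites and at 2.13% of the 78456 genomic sites. With exactly 3 such mismatches, 23 of 1491 genomic sites were listed (1.54%, 95% Wilson interval 1.03% to 2.30%). A further unpaired base adds freedom to the alignment, so the number is not comparable with that for 1 unpaired base.

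Another PAM gave a reading with at most 4 mismatches at 1 of the 55 sites. Without a gap and beside any PAM other than NGG, only the CUEDC1 site had at most 4 mismatches, namely 3 beside CAG, against 86 of the 78456 genomic sites (0.110%) and 32 of the 211 listed loci with more than 7 mismatches or no NGG match. This protospacer is shown with its PAM, because it ends 1 nt before the one beside AGG and lies within the bases of the gapped reading.
CUEDC1 site, PAM CAG, 3 mismatches: gaccccctTcaccccgGcCccag
The 2-mismatch gapped reading beside AGG and the 3-mismatch ungapped reading beside CAG therefore place the cut 1 nt apart. The only listed break position of this site coincided with the cut beside AGG and lay 1 nt from that beside CAG. Which reading Cas9 used was not tested. Another 4 sites reached 5 mismatches beside PAMs other than NGG, and of the 5 high sites none came below 7. For NAG and NGA PAMs alone, the CUEDC1 site was again the only one with at most 4 mismatches.

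The sites lay mostly in introns. Of the 55 expected cuts, 37 were in an intron of the canonical transcript, 12 were intergenic, 5 lay in a gene outside its canonical transcript and 1, at GARIN4, lay in a 5′ UTR. Within 1 kb of the start site of a protein-coding gene there were 9 of the 55 (16.4%), against 9.38% of the 78456 genomic sites, and these 9 included 3 of the 5 high sites, among them those at SHISA2 and TBC1D9B. Of the 7362 such genomic sites, 9 were listed (0.122%, 95% Wilson interval 0.0643% to 0.232%), against 0.0701% (0.0539% to 0.0912%) of all, so that the intervals overlapped.

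The GARIN4 site shared its whole protospacer and its PAM with a site in intron 1 of a long noncoding RNA gene on chromosome 18. The shared sequence is given because the 2 sites differ only in their surroundings.
Shared protospacer, at chr1:212624686-212624705, plus strand, and chr18:47266322-47266341, minus strand: CCcAcccCcACcccGgcctctgg
The chromosome 18 site had 250 counts in replicate 1 and 348 in replicate 2. The GARIN4 site, 228 bp from the start of the gene, had 142 in replicate 1 and was not listed in replicate 2. How reads that fit both places were assigned is not given in the sources used here.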

How the data were processed

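The authors deposited for each of 4 TTISS-seq libraries a list of break positions with a 60-nt sequence and a whole-number count, taken as read counts. hg38 is named in the submitters' processing notes, and 1222 of 1223 listed sequences stood at their listed position there; the other differed from the reference. The aligner, the listing rule, duplicate removal and the use of molecular identifiers are not given in the sources used here. An unlisted position was entered as 0.

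The guide was read from the study's list of guides; its sequence and 2 of the sites are not reported here. The sites, lists and tests were chosen with earlier results of these data known. Positions were merged within 30 nt. Gapped alignments left 1 base unpaired, never the first of the longer strand. The genomic background was a scan of chromosomes 1 to 22, X and Y of hg38. Intervals for the share of genomic sites that were listed treat sites as independent and cover counting error only. Genes were taken from GENCODE release 44.

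Counts of 689 loci, merged over all 4 libraries, were compared with edgeR 4.0.16 (glmQLFit and glmQLFTest, R 4.3.3, two-sided, total listed count as library size, no filter, Benjamini-Hochberg over all loci). The SE of a fold change is not given by this test and was taken as its absolute log2 value divided by the square root of the F statistic. DESeq2 1.42.0 was an alternative. Whether replicates were separate cultures is not stated, so p-values measure only the spread between these libraries, and an exact permutation of 2 against 2 libraries cannot give a p below 0.333. Searches and the count test were tested on simulated data. Python 3.11.15, scipy 1.17.1, pysam 0.24.0 and numba 0.67.0 were used. Named were the 12 sites with the highest mean share, the 12 highest with at most 3 mismatches in a gapped reading or beside another PAM, and all sites listed in a non-target library; others named for a count of 5 or fewer, or singled out, were chosen after their values were seen.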

Additional observations from a re-analysis of the deposited data

How the results depend on the processing

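The number of sites with 7 mismatches, the number listed in both replicates and their summed share changed little under other merging distances (5 and 100 nt), cut windows (3 and 25 nt) and, for the numbers, a minimum of 10 counts. The number of sites called higher, 15 beside 183 of all 689 loci, did not hold. When only loci with at least 10 counts in 2 libraries were tested, it was 30 of 33 sites, beside 296 of 351 loci. All 33 passed this filter through the 2 VEGFA site 2 libraries, which favours calls of higher counts, so this rise does not bear on stability. With library sizes summed over loci without an NGG match of at most 7 mismatches it was 24, beside 258 of 689 loci. DESeq2, which gave an adjusted p for 288 of 689 loci, called 1 site higher, beside 12 loci higher and 105 lower. TMM normalization called 0 sites (6 at an unadjusted p under 0.05) and 0 of 689 loci. Leaving out each library in turn gave 0 to 22, with 0 (also at an unadjusted p under 0.05) when either VEGFA site 2 library was left out; the remaining one was then assumed to vary like the non-target libraries, which alone gave the spread, so these 0 counts do not bear on stability. With a replicate block the number was 0 (3 at an unadjusted p under 0.05), beside 0 of 689 loci. The replicates share only a number, and their deviations correlated at 0.17 over 122 loci. The cause of these changes was not tested. The median share was 0.0175% to 0.0219% when 1 VEGFA site 2 library was left out, over the sites that the other alone gave. Sites with a gapped reading of at most 4 mismatches numbered 43, and 18 remained at a limit of 3. Those with a reading of at most 4 mismatches beside another PAM rose from 1 to 5 at a limit of 5. With 2 unpaired bases, an alternative chosen after seeing the data, 38 sites had a reading with at most 3 mismatches. The difference between mismatches at positions 1 to 10 and 11 to 20 was 2.94 over sites listed in both replicates. It was 3.17 over the 12 sites without a gapped or other-PAM reading of at most 4 mismatches. Those 12 sites still had a gapped reading with 5 mismatches, fewer than without a gap.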
